A study of Hordeum vulgare subsp. vulgare with 8 samples.

Results

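The splice events that set the barley variety Baudin apart from Bass, Harrington and Stirling were examined in germinating embryos. Baudin was represented by 2 of the 8 libraries, 1 at 24 h and 1 at 48 h of imbibition, and each of the other 3 varieties likewise by 1 library at 24 h and 1 at 48 h. An event was the same event in 2 libraries when the transcript and the start and end of its 3 exons were the same. Among 8325 distinct events, 52 were listed in both Baudin libraries and in none of the other 6, and are called Baudin-only. Another 153 were listed in Bass, in Harrington and in Stirling, at either time, and in neither Baudin library, and are called Baudin-missing.

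All the groups were seeds of cultivated barley (Hordeum vulgare) that were harvested from a single field trial. The seeds were sterilized with hypochlorite, rinsed and germinated in water in the dark, with no other treatment named. The embryos of many seeds were pooled for each library. Each variety was sequenced once per time without replicates, so a difference between varieties could be read only against the other varieties, whose spread also holds their genetic differences. The deposited lists cover alternative 3′ splice sites (A3S) and alternative 5′ splice sites (A5S), and each event has a constitutive exon, an annotated exon and an alternative form of that exon. Each exon has a mean read depth that is not scaled for library size, and the reads that cross a junction were not given. An event that is not listed is therefore not a measured zero.

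In pre-mRNA splicing, the spliceosome joins the 5′ splice site at the end of one exon to the 3′ splice site at the start of the next. In A3S the next exon begins at another 3′ site and becomes longer or shorter, and in A5S the end of the upstream exon moves in the same way. A distance that is a multiple of 3 nt keeps the reading frame, while other distances shift it. Plants carry many closely spaced pairs of 3′ sites, and varieties can differ in splice sites through differences in sequence. In germinating embryos, stored and newly made transcripts are spliced while respiration, protein synthesis and cell growth resume.

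The A3S lists held 1506 events (24 h) and 1289 events (48 h) in Baudin and between 1150 and 1712 events in the other 6 libraries. The A5S lists held 800 events (24 h) and 648 events (48 h) in Baudin and between 523 and 825 in the others. Annotated exons had a median depth between 24.9 and 34.4 in the 4 Baudin lists and between 22.3 and 33.6 in the others. Of the A3S events of Baudin at 24 h, 31.4% were listed again in Baudin at 48 h, while 39.9% were listed in Bass at 24 h, 36.1% in Stirling at 24 h and 31.5% in Harrington at 24 h. Of the A5S events of Baudin at 24 h, 25.1% were listed again in Baudin at 48 h and 33.4% in Bass at 24 h. An event of Baudin at 24 h was thus found in the later Baudin library no more often than in Bass at the same time. Of words that mark the tissue, 2 described genes for late embryogenesis abundant proteins and 1 for an alpha-amylase were listed, all of them also in Baudin. No gene described as a hordein, prolamin or glutelin of the starchy endosperm was listed in any library. The lists hold only genes with an alternative splice site, and 904 of 4634 listed genes were described. This absence therefore cannot show whether endosperm was present.

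Of the 473 A3S events listed in both Baudin libraries, 32 were Baudin-only (6.77%), and of the 201 A5S events 20 were Baudin-only (9.95%). These percentages are themselves the shares of the whole background. The same rule gave 34 A3S events for Bass (7.19%), 22 for Harrington (5.73%) and 25 for Stirling (5.4%). For A5S it gave 13 events for Bass (7.1%), 10 for Harrington (6.13%) and 23 for Stirling (10.7%). The Wilson 95% interval of the Baudin share was 4.83% to 9.39% for A3S and 6.53% to 14.9% for A5S. It held the share of each other variety for A3S, and those of Bass and Stirling but not that of Harrington for A5S. These intervals cover counting error only.

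Of the 611 A3S events listed in all 3 other varieties, 95 were Baudin-missing (15.5%), and of 266 A5S events 58 were Baudin-missing (21.8%). With another variety in the place of Baudin, the A3S counts were 111 for Bass (17.7%), 148 for Harrington (22.3%) and 101 for Stirling (16.4%). The A5S counts were 55 for Bass (20.9%), 94 for Harrington (31.1%) and 54 for Stirling (20.6%). Baudin had the lowest A3S share of the 4 varieties, next to Stirling, and its interval of 12.9% to 18.6% held the shares of Bass and Stirling and not that of Harrington. In number of private and absent events, Baudin was therefore within the range of the other varieties or next to its edge.

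**Figure D1:**
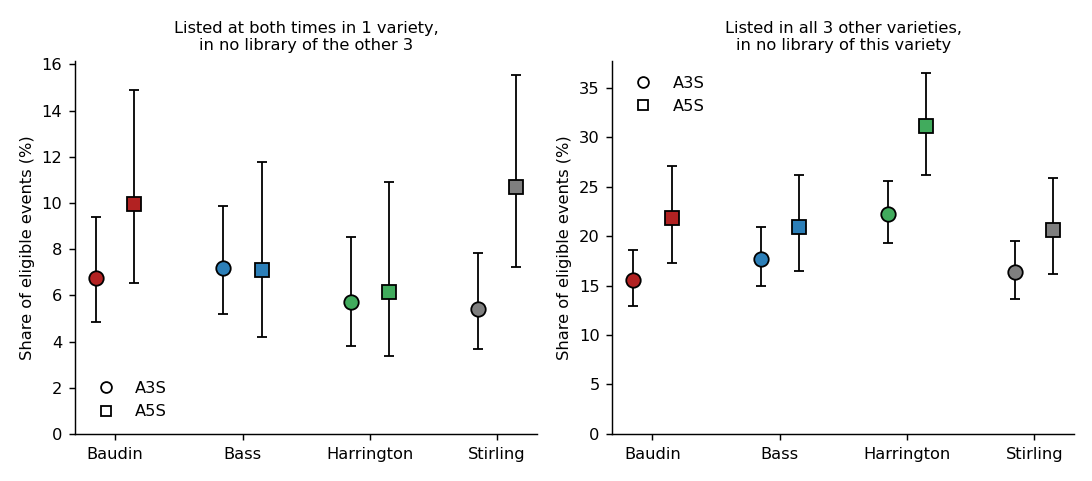
Share of eligible events (y axis, %) that were private to a variety (left panel) or absent from it (right panel), for each variety on the x axis, with A3S as circles and A5S as squares. Points are shares and bars are Wilson 95% intervals, which cover counting error only; the Baudin points at 6.77% and 9.95% (left) and 15.5% and 21.8% (right) overlap in their intervals with those of Bass and Stirling.

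Whether an event was absent from Baudin went with how widely it was listed elsewhere. Of events listed in 3 of the other libraries, 1 per variety, 33.8% were Baudin-missing, and the share was 21.4% for 4 libraries and 10.1% for 5. Of the 208 events listed in all 6 other libraries, 4 were Baudin-missing (1.92%). For Bass, Harrington and Stirling the shares at 6 libraries were 4.55%, 4.22% and 2.94%, so that Baudin had the lowest of the 4, with overlapping intervals. Of the 153 Baudin-missing events, 80 were listed in 3 other libraries, 48 in 4, 21 in 5 and 4 in all 6. In the other varieties, 118 of them were listed at both times, 27 at 24 h alone and 8 at 48 h alone.

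**Figure D2:**
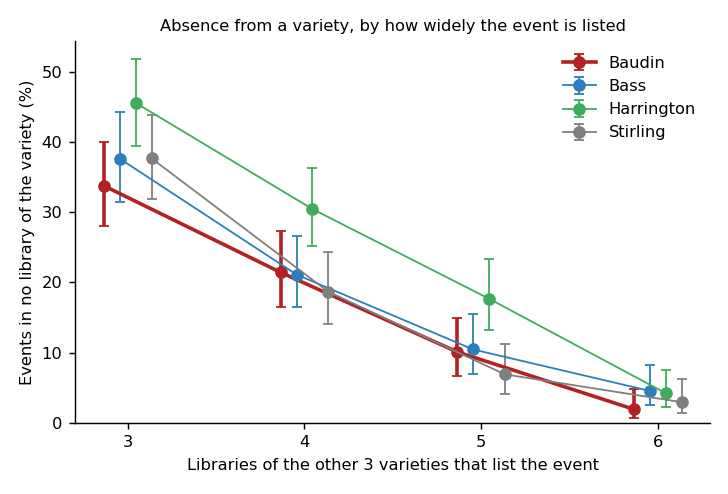
Share of events absent from a variety (y axis, %) by the number of libraries of the other 3 varieties that listed them (x axis), with 1 line per variety and Wilson 95% intervals as bars. In all 4 varieties the share falls with the number of libraries, to 1.92% in Baudin and 4.22% in Harrington at 6 libraries.

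Exon depth went less clearly with membership. Of events listed in both Baudin libraries, 11.3% were Baudin-only where the annotated exon had a mean depth under 10, 8.49% from 10 to under 30, 5.56% from 30 to under 100 and 7.38% at 100 or more. Of events listed in the 3 other varieties, 17.8%, 18.1%, 19.7% and 13.4% were Baudin-missing in the same order of depths. The intervals of neighbouring depth classes overlapped in both sets. The median depth of the Baudin-only exons was 31.1 for A3S, against 34.4 for all A3S events listed in both Baudin libraries, and 16.8 for A5S, against 35.8. The Baudin-missing exons had medians of 38.7 for A3S and 28.1 for A5S, against 34.9 and 29.8 for all events listed in the 3 other varieties.

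The distance between the 2 splice sites differed more between the Baudin-only A3S events and the events they were taken from. A distance of 3 nt, which adds or removes 1 codon, was seen in none of the 32 Baudin-only A3S events, which allows a share of up to 10.7% by the Wilson interval, against 23.5% (111 of 473) of all A3S events listed in both Baudin libraries. The same distance was found in 1 of 34 events private to Bass, 1 of 22 private to Harrington and 4 of 25 private to Stirling. Scarcity of 3-nt sites among private A3S events was thus not particular to Baudin. Distances from 13 to 30 nt made up 16 of the 32 Baudin-only A3S events (50%), against 18.8% of the eligible events. In the other varieties, this class held 8 of 34 private events in Bass, 4 of 22 in Harrington and 6 of 25 in Stirling, and it was singled out after the values were seen. The median distance was 19 nt in the Baudin-only A3S events, against 9 nt in the eligible ones. The alternative exon was shorter in 22 and longer in 10 of the 32, and the distance was a multiple of 3 in 14 of them (43.8%), against 50.5% of the eligible events.

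Among the 20 Baudin-only A5S events, 5 had a distance of 4 nt (25%), against 16 of 201 eligible events (7.96%), with intervals of 11.2% to 46.9% and 4.96% to 12.5%. A distance of 4 nt was seen in 1 of 13 A5S events private to Bass, none of 10 private to Harrington and 3 of 23 private to Stirling. A shift of 4 nt changes the reading frame. The 5 genes were MLOC_64594, MLOC_62437 (described as an ankyrin repeat protein), MLOC_55464, MLOC_52303 (an O-fucosyltransferase family protein) and MLOC_11036, which were named after their values were seen. The median distance of the Baudin-only A5S events was 14 nt, against 22 nt. A multiple of 3 was found in 6 of the 20 (30%), against 40.8% of the eligible events.

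The Baudin-missing events departed less from their background. A distance of 3 nt was found in 13 of 95 Baudin-missing A3S events (13.7%), against 24.2% of all 611 eligible ones. The events absent from Bass, Harrington and Stirling had it in 13.5%, 14.9% and 10.9%. Among Baudin-missing A5S events, 8 of 58 had a distance of 3 nt (13.8%), against 9.02%. Multiples of 3 made up 47.4% of the Baudin-missing A3S events, against 53.4%, and 41.4% of the A5S events, against 40.2%. Distances from 31 to 100 nt were the most common class of Baudin-missing A3S events, with 25 of 95 (26.3%), against 13.3%. This class was singled out after the values were seen. It was not counted for the events absent from the other varieties, so it cannot be called particular to Baudin.

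**Figure D3:**
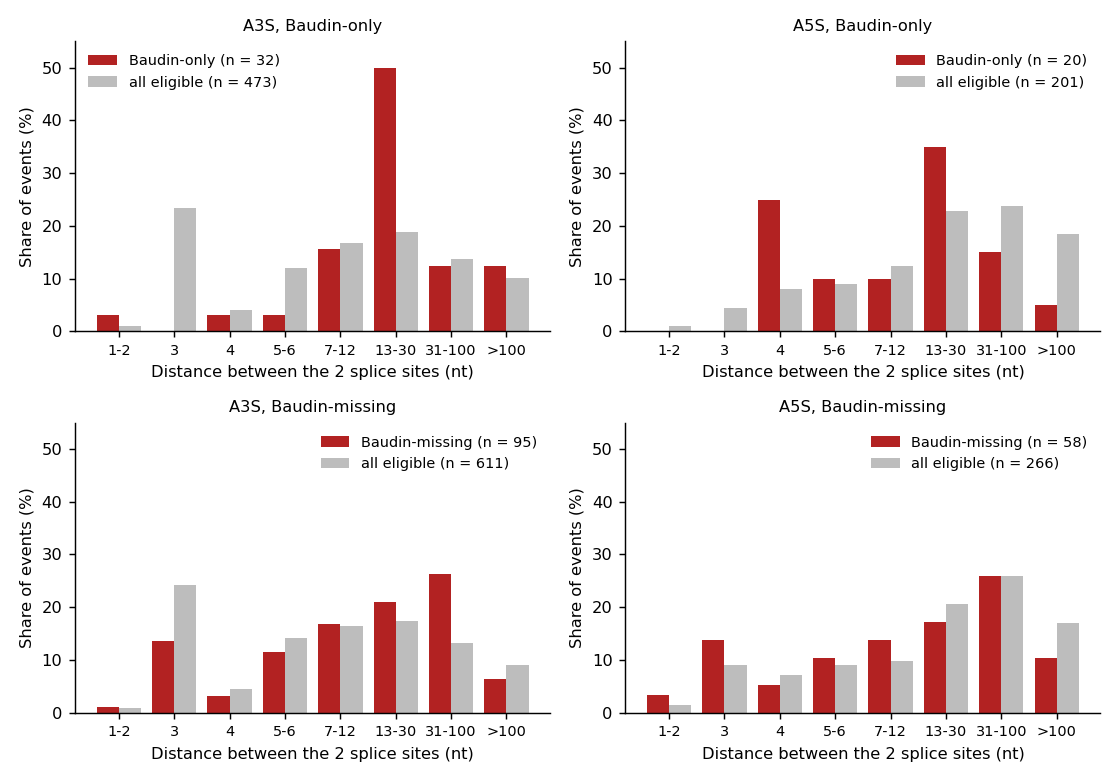
Distance between the annotated and the alternative splice site (x axis, nt, in classes) as a share of events (y axis, %), for Baudin-only events (top) and Baudin-missing events (bottom), A3S left and A5S right. Red bars are the members and grey bars all eligible events. No Baudin-only A3S event lies at 3 nt, 50% lie between 13 and 30 nt, and 25% of Baudin-only A5S events lie at 4 nt.

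The 52 Baudin-only events lay in 52 genes. In 14 events the gene was not listed at all in the other 6 libraries, in 26 it was listed there with another exon, and in 12 the same splice site was listed with another alternative. Such a second alternative was found for 8 of the 20 A5S events and 4 of the 32 A3S events. Counted by gene in place of event, 21 genes had A3S in both Baudin libraries and none in the others, and 14 had A5S. For 24 events the annotated exon itself was read in another variety through another event. Scaled depths were divided by a factor for each library, between 0.877 and 1.16, that was set on the exons listed in all 8 libraries. At the times that both sides read, the scaled depth in Baudin over that in the others had a median of 1.01 over these exons, with 12 higher and 12 lower in Baudin, and was within a factor of 2 for 22 of them. Over all 3561 exons read on both sides at the same time, the median was 0.973, and 93.4% were within a factor of 2. Averaged over all libraries whatever their time, the median of the 24 exons was 0.879.

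The 4 deepest exons of the Baudin-only A3S events included those of a ribosomal protein, a lipoxygenase and an annexin gene. MLOC_67266 is described as 40S ribosomal protein S3, a part of the small ribosomal subunit. Its annotated exon (LG02, 12494394 to 12494537) had a depth of 6256 (24 h) and 6310 (48 h) in Baudin, where a 3′ site 18 nt downstream was listed. The same exon had a depth of 7441 in Harrington at 48 h through another event, so the exon was read deeply without the alternative site being listed. MLOC_80550, which has no description, also had a 3′ site 18 nt downstream, with depths of 3656 (24 h) and 4714 (48 h) in Baudin, and it was not listed in any other variety. The lipoxygenase gene MLOC_54031, whose product oxygenates polyunsaturated fatty acids, had an exon lengthened by 27 nt. Its depths were 774 (24 h) and 1918 (48 h) in Baudin, against 755 and 1197 in Bass, 754 in Harrington at 48 h, and 1120 and 802 in Stirling. Baudin at 48 h was the highest of these libraries and Baudin at 24 h lay among the others. MLOC_51591, described as annexin 2 of the calcium-dependent membrane-binding annexins, had an exon lengthened by 262 nt. Its depths were 121.8 (24 h) and 544.4 (48 h) in Baudin, against 577 in Bass at 48 h, 150.5 and 678 in Harrington, and 299 and 565 in Stirling. Both Baudin values were the lowest of their time among the libraries that list the exon.

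Among the Baudin-only A5S events, MLOC_64594 had the deepest exon, with a 5′ site 4 nt downstream. Its depths were 860 (24 h) and 8505 (48 h) in Baudin, against 7655 in Bass, 7338 in Harrington and 3179 in Stirling, all at 48 h. MLOC_13819 encodes 60S ribosomal protein L13 of the large subunit, and the exon was lengthened by 29 nt in Baudin with depths of 978 (24 h) and 619 (48 h). The same exon was lengthened by 338 nt in Bass at 24 h, with a depth of 1133, and by 4 nt in Stirling at 24 h, with a depth of 1417. The 3 varieties thus listed different 5′ sites for this ribosomal protein exon. In Bass and Stirling the exon was listed at 24 h alone, and in Harrington it was not listed. The exons of MLOC_61053 and MLOC_62541 had depths between 50.9 and 67.8 in Baudin. The exon of MLOC_62541 was lengthened by 40 nt in both Baudin libraries, and it was shortened by 9 nt in Baudin at 48 h and in Harrington at 24 h.

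In the following genes another alternative of the same splice site was listed beside the Baudin-only one, and they are named after their values were seen. MLOC_53853 had a 3′ site 42 nt downstream in all 8 libraries and one 39 nt downstream in both Baudin libraries alone. MLOC_51956 had a 3′ site 4 nt downstream in all 8 libraries and one 25 nt upstream in Baudin alone. The annotated exon was read in every library, at 155 and 102 in Baudin and between 52.4 and 116 in the others. MLOC_38196 is described as a regulator of nonsense transcripts, a protein family that acts in the decay of transcripts with premature stop codons. Its exon was lengthened by 147 nt in all 8 libraries and by 128 nt in Baudin alone, and its depth was 12.9 (24 h) and 15.3 (48 h) in Baudin, against 6.30 to 15.6 in the others. MLOC_12361 had no site shared by all libraries, and its exon was shortened by 27 nt in Baudin and by 24 nt in Harrington at 24 h.

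RNA processing genes made up 2 of the Baudin-only events and 1 of the Baudin-missing events, of 20 described genes for splicing factors or RNA-binding proteins that were listed anywhere. Of all 904 described genes, 16 had a Baudin-only event (1.77%) and 62 had a Baudin-missing event (6.86%). MLOC_78250 is described as the pre-mRNA-splicing factor RSE1, which in yeast belongs to the U2 small nuclear ribonucleoprotein. Its exon was shortened by 30 nt in Baudin, with depths of 131 (24 h) and 106 (48 h), and the gene was listed in no other variety. MLOC_56091, an RNA-binding protein gene, carried members of both sets. A 3′ site 17 nt downstream was Baudin-only, with exon depths of 39.7 (24 h) and 31.6 (48 h) in Baudin, and a 5′ site 3 nt downstream of another exon was Baudin-missing and listed in 4 other libraries. The annotated exon of the Baudin-only event was read in Harrington at 52.4 (24 h) and 20.2 (48 h). The only other gene with members of both sets was MLOC_54788, described as anamorsin-like, a family that takes part in the assembly of iron-sulfur clusters. Its exon at the Baudin-only A5S event was lengthened by 8 nt, with depths of 17.0 (24 h) and 5.55 (48 h) in Baudin, and its Baudin-missing A3S event shortened another exon by 6 nt in the 3 other varieties at 24 h.

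**Figure D4:**
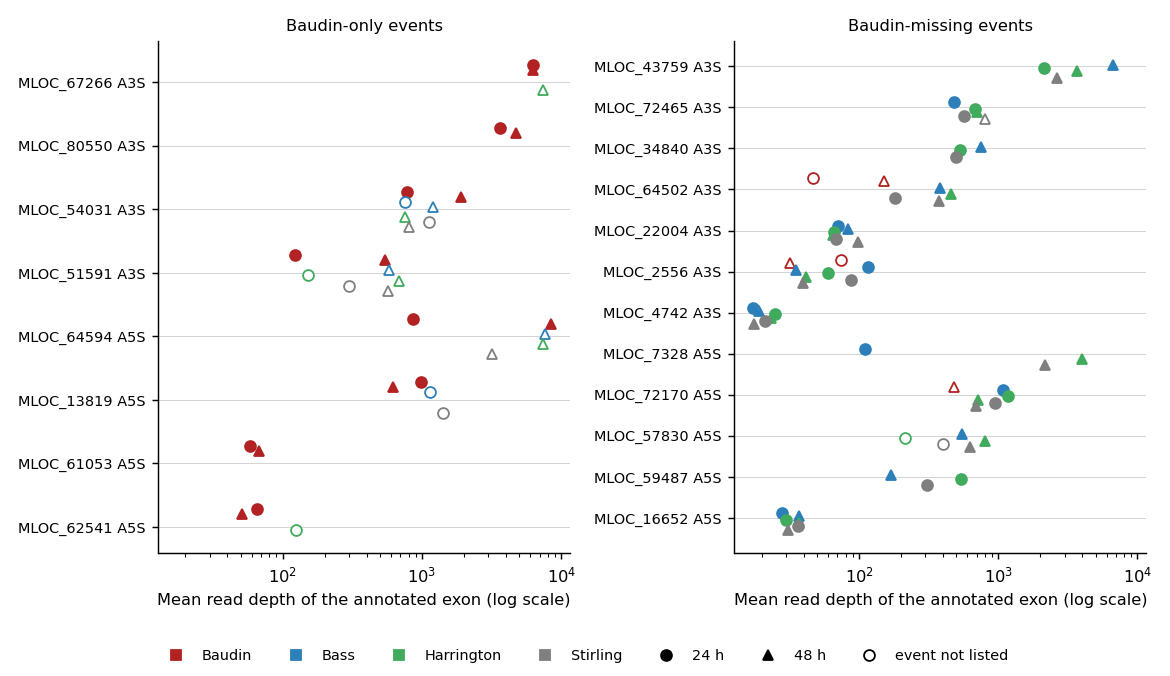
Mean read depth of the annotated exon (x axis, log scale, not scaled for library size) for the deepest members of each set and type and the events listed in all 6 other libraries (y axis), Baudin-only left and Baudin-missing right. Colours are varieties, circles 24 h and triangles 48 h; filled symbols list the event and open symbols read the exon through another event. The exon of MLOC_54031 was read in 7 libraries and the event was listed in the 2 Baudin libraries.

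The 153 Baudin-missing events lay in 149 genes. In 77 events the gene was not listed in Baudin at all, in 56 it was listed with another exon, and in 20 the same splice site was listed with another alternative. The annotated exon was read in Baudin through another event for 41 of them. At the times that both sides read, the scaled depth in Baudin over that in the others had a median of 0.859 for these exons, against 0.973 for all exons. It was lower in Baudin for 30 of the 41 (73.2%), against 54.0% of all exons, annotated and constitutive together. It was within a factor of 2 for 37, and the remaining 4 were more than 2-fold lower in Baudin. The events were chosen by listing, and listing needs reads, so this comparison of depth is not independent of the rule. The same limit holds for the exons of the Baudin-only events. For the other 112 events no depth of the annotated exon in Baudin was given. The constitutive exon was read on both sides for 39 Baudin-missing events. Averaged over all libraries whatever their time, its ratio had a median of 0.992, with 19 higher and 20 lower in Baudin. On that same measure the annotated exons had a median of 0.867, with 12 higher and 29 lower in Baudin. For the Baudin-only events the medians were 0.879 for annotated and 1.01 for constitutive exons. The annotated and constitutive exons come in part from different events, and no separate background was taken for each kind. Whether the 2 kinds of exon differ in this was not tested.

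The 4 events listed in all 6 other libraries and in neither Baudin library were of moderate depth. MLOC_22004 (LG04, exon 123741568 to 123742144) had a 3′ site 12 nt downstream. Its exon depth was 70.2 and 83.6 in Bass, 65.8 and 65.4 in Harrington, and 68.4 and 97.7 in Stirling at 24 h and 48 h. The gene was not listed in Baudin at all, so its depth there was not given. MLOC_2556 (LG03, exon 149649306 to 149649424) had a 3′ site 6 nt downstream. Its annotated exon was read in Baudin through an A5S event, at 74.5 (24 h) and 32.1 (48 h), against 116.7 and 35.3 in Bass, 59.7 and 42.0 in Harrington, and 87.0 and 39.6 in Stirling. At 24 h Baudin lay among the other varieties, and at 48 h it was the lowest. MLOC_4742 is described as early-responsive to dehydration, and its exon (LG04, 35188262 to 35188615) was shortened by 20 nt. Its depth was between 17.3 and 24.8 in the 6 other libraries. The A5S event of MLOC_16652 (LG10, 122386869 to 122387384) lengthened an exon by 81 nt, with depths between 28.1 and 37.1. Neither of these genes was listed in Baudin.

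The deepest Baudin-missing exon belonged to MLOC_43759, described as Wali5, a wheat protein named for induction by aluminium. The exon was shortened by 34 nt, with depths of 6644 in Bass at 48 h, 2121 and 3702 in Harrington, and 2643 in Stirling at 48 h. It was followed by MLOC_72465, with depths between 481 and 803, and MLOC_34840, with depths between 494 and 754, none of which was listed in Baudin. The fourth was MLOC_64502, the gene for a malic enzyme, which converts malate to pyruvate. Its exon (LG01, 134208908 to 134209036) was shortened by 70 nt in 4 other libraries, and in both Baudin libraries it was shortened by 20 nt instead. That second site was also listed in Harrington at 48 h, where both were found. The annotated exon had depths of 47.0 (24 h) and 152 (48 h) in Baudin, against 382 in Bass at 48 h, 458 in Harrington at 48 h, and 181 and 377.5 in Stirling. Both Baudin values were below those of every other library that listed the exon. The constitutive exon was lower as well, with a scaled depth of 8.19 in Baudin and 31.2 in the others, a ratio of 0.263, beside a ratio of 0.274 for the annotated exon. Of the 4 other libraries that read these exons 3 were at 48 h, and within the same time the ratio of the annotated exon was 0.306. Among exons listed in at least 1 library of every variety, the difference was -2.18 on the log2 scale for the annotated exon (SE 0.46) and did not pass the test (limma, adjusted p = 0.997).

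Of the A5S events, MLOC_7328 had depths of 111 in Bass at 24 h, 4002 in Harrington at 48 h and 2156 in Stirling at 48 h, and was not listed in Baudin. The exon of MLOC_72170 was shortened by 24 nt in 5 other libraries. It was read in Baudin at 48 h at 483, against 693 to 1170 in those 5 libraries. MLOC_57830 was lengthened by 108 nt and was not listed in Baudin. MLOC_59487, described as a stachyose synthase of the raffinose family of seed sugars, was shortened by 3 nt with depths between 169.5 and 542.

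The members were also counted by the described function of their genes, with no test. Descriptions were given for 904 of 4634 listed genes, and they were made for genes found in at least 3 varieties, so they cover 64 of 153 Baudin-missing and 16 of 52 Baudin-only events. Of 35 described transcription factor genes, 23 were listed in Baudin, none had a Baudin-only event and 5 had a Baudin-missing event (14.3%, against 6.86% of all described genes). The deepest was MLOC_61270, a member of the plant NAC family. Its exon was lengthened by 212 nt in all 8 libraries, and by 308 nt in 5 of the 6 others and in neither Baudin library. The annotated exon was read at 201 (24 h) and 67.2 (48 h) in Baudin, against 181 to 203 at 24 h and 48.3 to 98.7 at 48 h in the others. Baudin thus lay within the range of the others at both times, while the second alternative was not listed. MLOC_44354, a CCCH zinc finger gene, MLOC_59511, a bHLH gene, and MLOC_66152, auxin response factor 18, had Baudin-missing events in genes that were not listed in Baudin. MLOC_66152 was also the only member among 8 described hormone genes.

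Of 81 described kinase or phosphatase genes, 57 were listed in Baudin, 1 had a Baudin-only event (1.23%, against 1.77% of all described genes) and 8 had a Baudin-missing event (9.88%, against 6.86%). The Baudin-only gene, MLOC_67009, encodes phosphoglycerate kinase, an enzyme of glycolysis and not a protein kinase. Its exon was lengthened by 586 nt and had depths of 13.4 (24 h) and 14.7 (48 h) in Baudin, against 6.65 in Harrington at 24 h. The constitutive exon of this event had depths of 2325 (24 h) and 2695 (48 h) in Baudin, against 1720 in Harrington at 24 h. Among the Baudin-missing events, MLOC_69212, an SnRK2 gene of abscisic acid signalling that is described as protein kinase 1, had an exon shortened by 21 nt. Its depths were between 12.99 and 23.6 in the other libraries, and in Baudin it was listed with another exon. It was the only gene with a member among 8 genes of VP1, SnRK2, AUX/IAA and ARR-A that were looked up, which are not all the genes of these families that the study names. The deepest 3 of the 8 Baudin-missing genes were MLOC_14604 and MLOC_10839, described as kinases, and MLOC_55329, a protein kinase. MLOC_10839 was shortened by 24 nt in Baudin at 24 h, in place of the 7 nt listed in the other varieties.

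Of 30 described ribosomal protein genes, 24 were listed in Baudin, 2 had a Baudin-only and 2 a Baudin-missing event (6.67% each). Of all described genes, 1.77% had a Baudin-only and 6.86% a Baudin-missing event. The Baudin-missing share was thus near that of all described genes, and the Baudin-only share rests on 2 genes. The Baudin-missing ones were MLOC_65818, for 40S ribosomal protein S7, with an exon shortened by 4 nt and depths between 199 and 221, and MLOC_17719, for ribosomal protein S27, with depths between 2.92 and 3.90. The constitutive exon of the MLOC_17719 event was read far more deeply, with a mean scaled depth of 547 in Baudin and 638 in the others. Of 12 described genes for sugar and starch enzymes, 8 were listed in Baudin and 3 had a Baudin-missing event (25%, against 6.86% of all described genes). These were MLOC_59487 (above) and the beta-glucosidase genes MLOC_67725 and MLOC_7890, whose enzymes release glucose from glucosides. The exon of MLOC_67725 had depths of 129 and 88.8 in Bass, 646 and 55.3 in Harrington and 82.5 in Stirling at 48 h, and the gene was not listed in Baudin. Of 34 described genes for ubiquitin and the proteasome, 22 were listed in Baudin and 1 had a Baudin-missing event (2.94%, against 6.86% of all described genes). This was MLOC_76365, for cullin-1, the scaffold of SCF ubiquitin ligases. None of the 12 described translation factor genes and none of the 5 heat shock or chaperone genes held a member.

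The same splice site was listed on both sides with different alternatives for 12 Baudin-only and 20 Baudin-missing events. The nearest alternative of the other side lay between 3 and 198 nt away for the Baudin-only events, with a median of 18 nt, and within 6 nt for 2 of them. For the Baudin-missing events it lay between 3 and 370 nt away, with a median of 43.5 nt, and within 6 nt for 5. MLOC_38886, described as FRIGIDA, which in Arabidopsis controls flowering time, was shortened by 646 nt in 5 other libraries. In Baudin at 48 h it was shortened by 712 nt, as it was in both Harrington libraries, and its exon depth there was 25.2, against 28.7 in Harrington and Stirling at 48 h. MLOC_44640 was shortened by 49 nt in the 3 other varieties and by 44 nt in both Baudin libraries and in 5 others. These 2 genes were named after their values were seen.

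The members were spread over the linkage groups. LG01 held 17 of the 52 Baudin-only events (32.7%), against 36.9% of the eligible ones, and 55 of the 153 Baudin-missing events (35.9%), against 35.2%. The Baudin-missing share was highest among groups with more than 50 eligible events on LG04 (24 of 104, 23.1%) and lowest on LG15 (5 of 62, 8.06%). LG07 held 2 of 4 and 3 of 6 eligible events, which is too few to compare. Of the 199 member genes, 4 neighbouring pairs lay within 100 kb, and 2 of these pairs joined a gene of each set. One of them was MLOC_64594, with the deepest Baudin-only A5S exon, and MLOC_64592, with a Baudin-missing A5S event, 20970 bp apart on LG01. In 4 genes, MLOC_64860, MLOC_10851, MLOC_65819 and MLOC_17676, 2 events were Baudin-missing. These genes and the neighbouring pair were named after their values were seen. MLOC_65819, a subunit of the CCR4-NOT complex that shortens the poly(A) tails of transcripts, was listed in Baudin with another exon and not with the exon of these events.

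The depth of an exon is a measured value, unlike the listing of an event, and it was tested across varieties with a model. With 1 variety against 3, the p-values rest on that model and on the spread of the other 3 varieties. The test covered the 374 exons, in 189 genes, that were listed in all 8 libraries, with Baudin set against the 3 other varieties on variety means of log2 scaled depth. None was higher (0%) and 1 was lower (0.267%) in Baudin at an adjusted p under 0.05 (limma), and 13 exons had an unadjusted p under 0.05. Both Baudin libraries lay above all 6 others for 9 exons (2.41%) and below all 6 for 8 (2.14%). Of these exons 30 were in 17 member genes. The largest difference among them was in MLOC_4555, described as chromatin-remodeling protein 11, which moves nucleosomes, and which also had a Baudin-missing A3S event 3 nt downstream at another exon. It was named after its values were seen. Its exon had scaled depths of 155 (24 h) and 148 (48 h) in Baudin, against 73.5 and 59.4 in Bass, 86.8 and 67.5 in Harrington, and 47.3 and 65.9 in Stirling. Both Baudin values were above all others, with a difference of 1.20 on the log2 scale (SE 0.26) that did not pass the test over all exons (limma, adjusted p = 0.805).

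The one exon that passed lay in MLOC_77777, a gene for a late embryogenesis abundant protein, of a family that accumulates in maturing embryos and is linked to desiccation tolerance. It was a constitutive exon of 60 nt (LG02, 146330625 to 146330684), and the gene is not a member of either set. Its scaled depth was 3.12 (24 h) and 14.8 (48 h) in Baudin, against 76.3 and 769 in Bass, 139 and 924 in Harrington, and 419 and 691 in Stirling. Both Baudin values were below all others, and the difference was -5.49 on the log2 scale (SE 0.44, limma, adjusted p = 0.00835). The call was lost without Bass, without Stirling, with the 24 h libraries alone and over the 1550 exons listed in at least 1 library of every variety (adjusted p = 0.142), while the difference stayed between -4.86 and -5.76.

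The annotated exon of the same gene, 525 nt long and 93 nt further on (LG02, 146330778 to 146331302) was also lowest in Baudin at both times, by less. Its scaled depth was 278 (24 h) and 2224 (48 h) in Baudin, against 392 and 4745 in Bass, 620 and 6173 in Harrington, and 1799 and 4087 in Stirling. The difference was -1.30 on the log2 scale (SE 0.40) and did not pass the test (limma, unadjusted p = 0.0183, adjusted p = 0.995). The unscaled depth of the 525-nt exon was 89.0 times that of the 60-nt exon in Baudin at 24 h and 150.1 times at 48 h. In the other libraries this ratio was 5.13 and 6.17 in Bass, 4.47 and 6.68 in Harrington, and 4.29 and 5.92 in Stirling. Baudin stood apart at both times, and all bases of the short exon were covered in every library. The same ratio of annotated to constitutive exon was then taken for all 167 exon pairs listed in all 8 libraries. This measure was chosen after the difference was seen and uses the same exon, so it is given as a description with no test. The log2 ratio of MLOC_77777 was 6.62 in Baudin and 2.42 in the others, a difference of 4.20, and the next largest difference among the 167 pairs was 0.96, in MLOC_59859.

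The A3S event of this gene was shared. A 3′ site 6 nt downstream of the annotated one was listed in all 8 libraries, one 3 nt downstream in Baudin and Stirling at 24 h, one 66 nt downstream in Baudin at 48 h alone, and ones 15 nt and 33 nt downstream in Stirling at 48 h alone. The depth of the upstream exon thus differed in Baudin while the common alternative 3′ site was listed in every variety. Whether reads from the short exon align differently in Baudin was not tested.

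**Figure D5:**
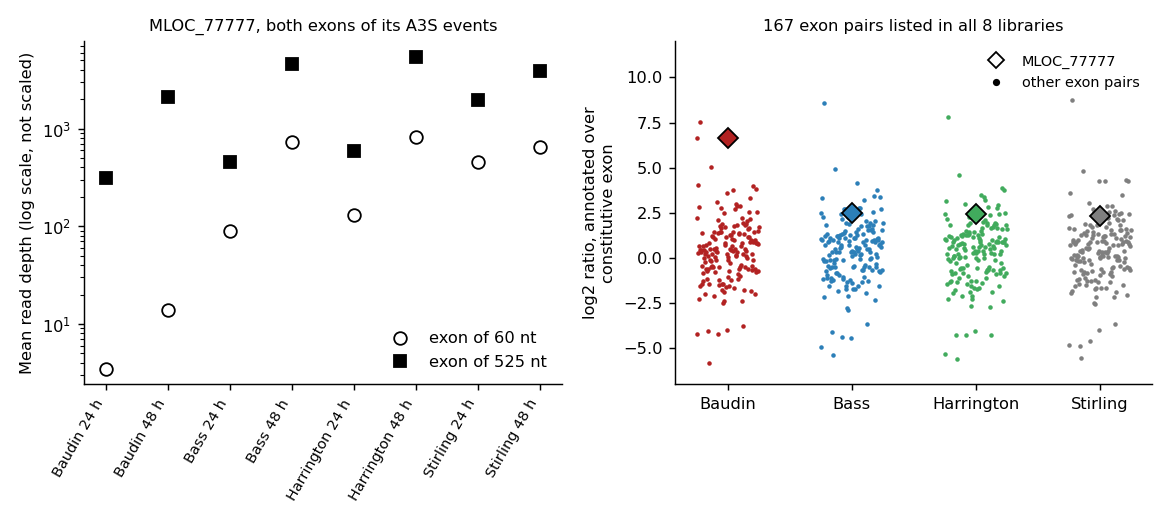
Left, mean read depth (y axis, log scale, not scaled) of the 60-nt exon (open circles) and the 525-nt exon (filled squares) of MLOC_77777 in each library (x axis). Right, log2 ratio of the annotated to the constitutive exon (y axis) for 167 exon pairs, as the mean of 24 h and 48 h in each variety (x axis), with MLOC_77777 as a diamond at 6.62 in Baudin and an average of 2.42 in the others.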

How the data were processed

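Embryo mRNA was sequenced by the study as 8 libraries, 1 per variety (4) and time (24 h, 48 h). Per the paper's methods, the authors aligned reads with SOAP2 version 2.21 to the Morex genome (IBSC) and called A3S and A5S with SOAPsplice version 1.10; linkage groups and coordinates are those of the deposited lists. The deposited values are mean read depths of exons, which the authors did not scale. The column note names a further value a minimum depth, which lay between 0.5 and 1 and was read as the covered share of an exon. Total reads per library were not used here.

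Events were matched by transcript and exon coordinates with Python 3.11.15 and pandas 2.3.3. Shares have Wilson 95% intervals (scipy 1.17.1). Baudin against 3 varieties cannot give an exact p-value under 0.25, so membership was not tested. Exon depth was divided by a factor per library (median ratio), and log2(depth + 1), averaged over both times, was compared between Baudin and the other 3 variety means with limma 3.58.1 in R 4.3.3 and Benjamini-Hochberg adjustment over all 374 exons. Baudin itself then has no spread of its own. The functions were tested on simulated data. The members and gene lists were chosen with earlier results of these data known.

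The genes named are the 4 deepest events per set and type, the events listed in all 6 other libraries, genes with members of both sets, genes named by the paper, up to 3 members of each word list of descriptions by depth, and exons with an adjusted p under 0.05. Further genes were named with their values known. Gene descriptions were read from supplementary tables of the study, and the word lists were widened with related words (such as NAC, WRKY and cullin) after the tables were seen. Alternatives were matching by splice sites, a minimum depth of 10, genes in place of events, at least 1 Baudin library, all 6 other libraries, each other variety left out, and, for depth, no scaling, 5 added in place of 1, a mean depth of at least 10, a fit of the 8 libraries with time as covariate and each time alone. The exon ratio, the wider set of exons and the comparison of member exons within time were added after seeing the data. No sequence was used here.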

Additional observations from a re-analysis of the deposited data

Results flagged for a closer look

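For 4 of 38 values checked, Baudin lay above all 3 other varieties at one time and below all 3 at the other, and the difference between the times was not tested. With so few varieties such a pattern can arise by rank alone, and how often was not computed. The exon of MLOC_5703 on LG04 (43580678 to 43580953) had a scaled depth of 31.5 in Baudin at 24 h, against 42.7 to 44.8 in the others, and of 47.9 in Baudin at 48 h, against 42.8 to 45.9. The exon of MLOC_66422 (3556098 to 3556213) had 20.3 in Baudin at 24 h, against 20.8 to 28.1, and 12.2 at 48 h, against 6.83 to 10.4. The exon of MLOC_44134 (14872846 to 14873109) had 125.4 in Baudin at 24 h, against 113 to 124.2, and 79.6 at 48 h, against 81.4 to 102.4. The median annotated exon depth of the A5S lists was 27.9 in Baudin at 24 h, against 28.4 to 30.4, and 24.9 at 48 h, against 22.3 to 24.3.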

How the results depend on the processing

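Matching events by splice sites in place of exon coordinates gave the same 32, 20, 95 and 58 events. A minimum depth of 10 left 21 Baudin-only A3S and 12 Baudin-only A5S events, and 68 and 42 Baudin-missing ones. Without one of the other varieties the Baudin-only counts were 41 to 55 (A3S, highest without Bass) and 27 to 31 (A5S, highest without Stirling), and the Baudin-missing counts were 229 to 288 (A3S, highest without Harrington) and 125 to 144 (A5S, highest without Harrington), since the rules then ask for fewer libraries. Listing in at least 1 Baudin library and in no other gave 934 A3S and 545 A5S events, and listing in all 6 other libraries gave 3 and 1 Baudin-missing events. Counted by gene, the Baudin-only A3S genes were 21 in place of 32. The exons lower in Baudin were between 0 and 1 with one variety left out (0 without Bass and 0 without Stirling), 0 with the 24 h libraries alone and 0 over the wider set of exons, where 74 of 1550 exons had an unadjusted p under 0.05. The 0 exons higher in Baudin stayed at 0 under every alternative. The log2 difference of the 60-nt exon of MLOC_77777 ranged from -4.86 (5 added before the log) to -5.76 (without Bass). The difference in the exon ratio of this gene ranged from 3.92 (24 h) to 4.49 (48 h) on the log2 scale. No paired analysis was possible because each library is the only one of its variety and time, so that no replicate number pairs libraries. The fit of the 8 libraries with time as covariate, which compares varieties within time, also gave 1 exon lower and 0 higher in Baudin. That fit counts the 24 h and 48 h libraries of a variety as separate units. It is therefore no independent support for the comparison of variety means. Junction reads are not in the lists, and with 1 library per variety and time the variety and the sampling of events cannot be told apart.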
